A study of Drosophila melanogaster with 6 samples.

Results

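The genes described here encode the integrins of Drosophila melanogaster and the cytoplasmic proteins that tie them to actin. They were taken as 10 named genes, namely mys, if, mew, scb, ItgaPS4, Itgbn, rhea, Ilk, Vinc and cher, and every array probe set annotated to exactly 1 of them was used. All 10 had such a probe set, 11 probe sets in all because rhea had 2, out of 10844 genes that could be named on the array.

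RNA came from eye-antennal discs, the larval tissue that forms the adult eye and antenna, and was measured on 6 single-colour Affymetrix arrays. In the GMR>RasV12 discs (genotype GMR Gal4/UAS RasV12, 3 arrays), Ras, a small GTPase, was expressed in its activated form. In the GMR>sSpi discs (genotype GMR Gal4/+; UAS sSpi/+, 3 arrays), the transgene was sSpi, a secreted form of Spitz, the ligand of the EGF receptor upstream of Ras. Both genotypes carry the GMR-Gal4 driver, which acts in the eye disc posterior to the morphogenetic furrow, so that the antennal disc and the anterior eye disc were part of each sample without being driven. Larvae were wandering 3rd instars raised at 25 °C, and each sample pooled 100 discs. Discs without a transgene were not analysed here, so every difference sets RasV12 against sSpi. For the sSpi arrays the description field speaks of RasV12 but title, source and genotype give sSpi, and the titles set the groups.

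Integrins are surface receptors made of 1 alpha and 1 beta subunit, which hold epithelial cells to the basement membrane and hold cell layers to each other. In the fly, mys encodes the main beta subunit, betaPS, and the alpha subunits are alphaPS1 (mew), alphaPS2 (if), alphaPS3 (scb) and their relatives. Talin binds the beta tail and links it to actin, and vinculin, integrin-linked kinase and filamin take part in that link. In the eye these proteins are known for attaching retinal cells at the base of the tissue.

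The values are MAS5 signals on a linear scale, 1 per probe set and array, and the array medians lay between 39.4 and 41.4. Pearson's r between arrays, across 8380 probe sets, was 0.961 to 0.983 within RasV12, 0.971 to 0.978 within sSpi and 0.948 to 0.967 across genotypes. RasV12 replicate 1 stood apart on the second principal component, at 20.3 against -13.4 to 3.93 on the other 5 arrays. As a check of the labels, spi had a mean of 1018 ± 25.8 in RasV12, against 1314 ± 83.6 in sSpi (SD, n = 3). This difference of -0.36 on the log2 scale was not called (limma adjusted p = 0.082, and 0.037 to 0.266 in other settings, called under quantile normalization alone), so it does not settle the labels. Ras85D was not analysed here. All 9 disc markers examined (eya, so, ey, toy, dac, gl, elav, Dll and ct) were bright enough to be tested. Of these, ey, a Pax6 gene, was called lower, at 277 ± 10.5 in RasV12, against 394 ± 39.1 in sSpi (SD, n = 3; limma adjusted p = 0.048), and the call ended in 12 of 16 other settings.

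No integrin or linker gene differed between the genotypes at an adjusted p of 0.05. Of the 11 probe sets, 9 probe sets of 8 genes passed the filter on low signal and were tested with limma on log2(signal + 16), and 0 of the 9 were called. Over all 8380 probe sets tested, 219 were called, which is 2.61%, so a count of 0 among 9 lies near that background. At an unadjusted p of 0.05, 4 of the 9 passed, all lower in RasV12, against 15.2% of all tested probe sets in either direction and 7.68% in that direction. These 4 were mys, scb and both probe sets of rhea. Their RasV12 signals all lay below their sSpi signals, which was so for 11.1% of all tested probe sets, while 10.2% lay entirely above and 0 of the 9 did.

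Among beta subunits, mys had signals of 396, 398 and 366 in RasV12, against 521, 496 and 470 in sSpi. Every RasV12 array was below every sSpi array. The means were 387 ± 17.9 in RasV12 and 496 ± 25.5 in sSpi (SD, n = 3). The log2 difference was -0.35 ± 0.09 (SE, 95% interval -0.56 to -0.13, limma adjusted p = 0.109). An exact two-sided permutation test gave p = 0.1, the smallest that 3 arrays against 3 allow. With any 1 array left out the log2 difference of mys stayed between -0.38 and -0.31. The second beta subunit gene, Itgbn, which encodes betanu, known from the midgut and from engulfment by blood cells, lay below the filter, at 9.36, 23.1 and 14.3 in RasV12 and 7.24, 12.1 and 11.8 in sSpi. RasV12 replicate 2 was the highest array and the groups overlapped. In the fit of all probe sets its log2 difference was 0.24 ± 0.18 (SE, limma adjusted p = 0.669, n = 3). Without RasV12 replicate 2 it was 0.08.

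**Figure D1:**
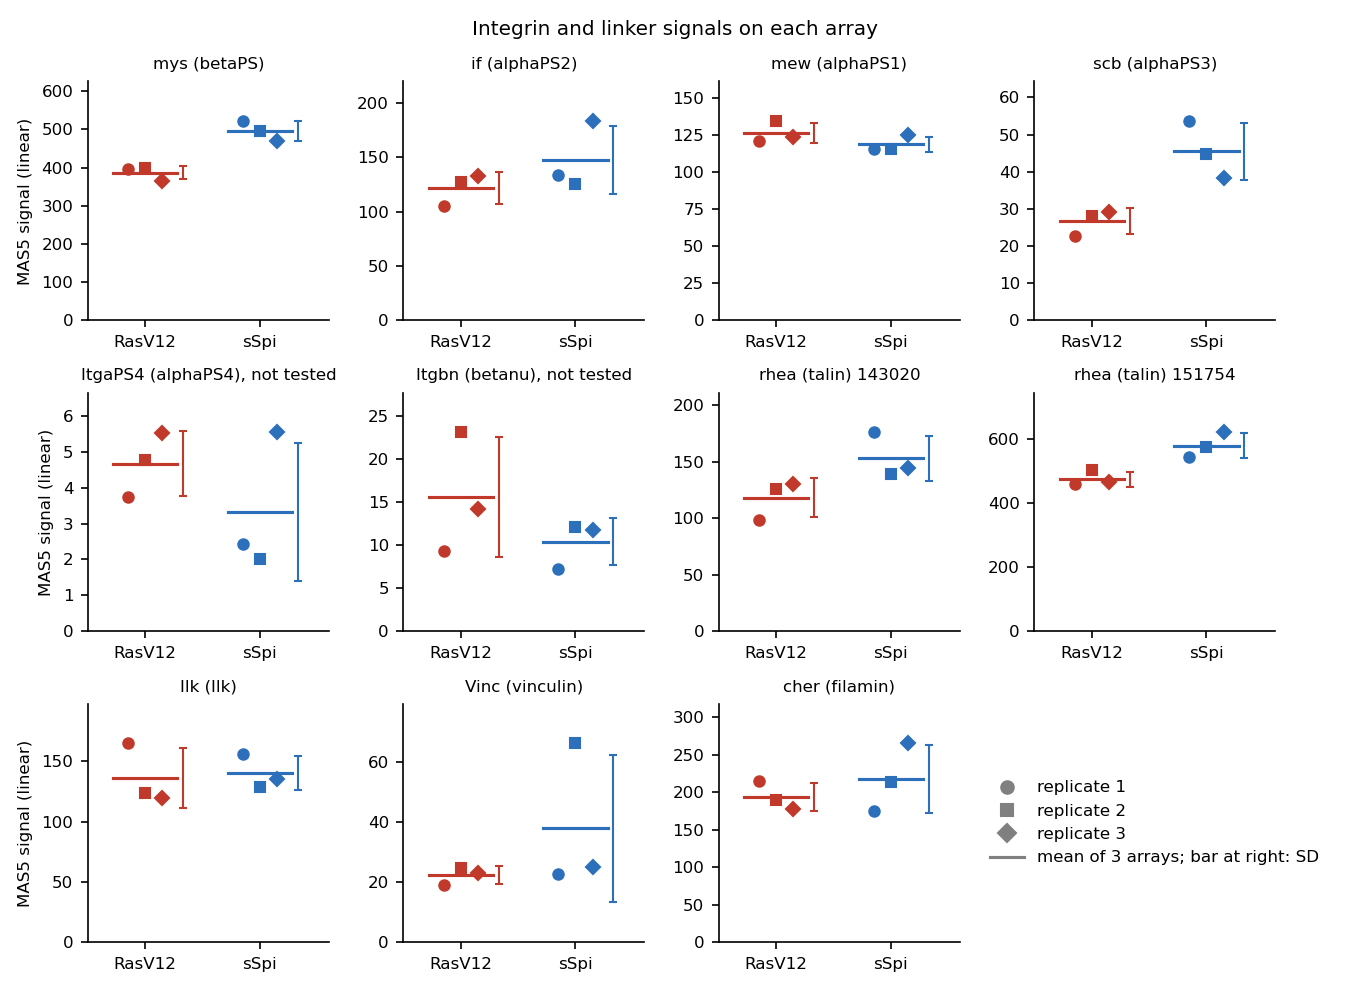
MAS5 signal (linear axis from 0) of each of the 11 probe sets on each array, RasV12 at left and sSpi at right, with the mean and SD of 3 arrays and a marker shape for each replicate number. In mys, scb and both rhea panels every RasV12 point lies below every sSpi point; in the other 7 panels the groups overlap.

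The differences of the alpha subunit genes had both signs. The gene scb, which encodes alphaPS3, had signals of 22.8, 28.1 and 29.2 in RasV12, against 53.6, 44.8 and 38.2 in sSpi. All 3 RasV12 arrays were the lower ones, on a dim probe set whose mean of 36.1 over 6 arrays was at the 47.6th percentile of all probe sets. Its log2 difference was -0.52 ± 0.15 (SE, 95% interval -0.86 to -0.18, limma adjusted p = 0.129, n = 3), the largest in size of the 9 at this pseudocount with all 6 arrays. The size rests on the pseudocount, at -0.74 with 1 and -0.27 with 64, where that of mys was larger, at -0.31.

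The gene mew, which encodes alphaPS1, had signals of 121, 134 and 123 in RasV12, against 116, 116 and 125 in sSpi. The groups overlapped and all 6 values lay close together. Its log2 difference of 0.08 ± 0.10 (SE, limma adjusted p = 0.783, n = 3) was the only one above 0 among the 9, with a 95% interval from -0.16 to 0.31. The gene if, which encodes alphaPS2, had signals of 105, 128 and 133 in RasV12, against 134, 126 and 183 in sSpi. Here sSpi replicate 3 was the highest array, and the groups overlapped. The log2 difference of if was -0.23 ± 0.15 (SE, limma adjusted p = 0.514, n = 3), with a 95% interval from -0.57 to 0.10. Leaving out sSpi replicate 3 brought it to -0.09.

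The fourth alpha subunit gene of the set, ItgaPS4, had signals of 3.73, 4.75 and 5.52 in RasV12 and 2.42, 2.01 and 5.54 in sSpi. These lie at the 12.7th percentile of all probe sets by mean signal, below the filter, and the groups overlapped. In the fit of all probe sets its log2 difference was 0.10 ± 0.09 (SE, limma adjusted p = 0.723, n = 3). It ran from 0.05 to 0.18 with 1 array left out and was 0.47 with a pseudocount of 1. In the gene table scb and ItgaPS4 are next neighbours, and of the pair scb alone had signals in the tested range. A related alpha subunit gene outside the set, ItgaPS5, also lay below the filter.

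Because alphaPS1, alphaPS2 and alphaPS3 each pair with betaPS, the log2 value of each alpha gene minus that of mys was compared within arrays, a comparison added after the values were seen. For mew this difference was -1.50 ± 0.07 in RasV12, against -1.92 ± 0.12 in sSpi (SD, n = 3), a shift of 0.42 with no overlap between the groups. The exact two-sided permutation p was 0.1, the smallest possible, and 0.3 after Benjamini-Hochberg adjustment over the 3 pairs. Of the other 8379 probe sets, 54.3% were likewise higher against mys in every RasV12 array, and their median shift against mys was 0.34. The groups overlapped for if minus mys, with a shift of 0.11 (exact permutation p = 0.6) that ran from 0.013 to 0.30 with 1 array left out, and for scb minus mys, with a shift of -0.18 (exact permutation p = 0.2).

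Among the linkers, both probe sets of rhea, the talin gene, were lower on every RasV12 array. The probe set 151754_at had signals of 459, 503 and 466 in RasV12, against 544, 576 and 622 in sSpi. Its log2 difference was -0.28 ± 0.10 (SE, 95% interval -0.49 to -0.06, limma adjusted p = 0.208, n = 3). The probe set 143020_at had signals of 98.3, 126 and 130 in RasV12, against 176, 139 and 144 in sSpi. Its log2 difference was -0.34 ± 0.14 (SE, 95% interval -0.64 to -0.03, limma adjusted p = 0.279, n = 3). The 95% interval of each rhea probe set contains the estimate of the other, and both come from the same 6 RNA samples.

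Ilk, which encodes the pseudokinase that joins the PINCH and parvin proteins at integrin tails, had signals of 165, 124 and 120 in RasV12, against 156, 129 and 136 in sSpi. Replicate 1 was the highest array in each genotype and the groups overlapped. Its log2 difference was -0.05 ± 0.14 (SE, 95% interval -0.36 to 0.26, limma adjusted p = 0.907, n = 3). That of cher, the filamin gene, was -0.14 ± 0.15 (SE, 95% interval -0.48 to 0.19, limma adjusted p = 0.710, n = 3). The cher signals were 215, 189 and 177 in RasV12 and 175, 214 and 265 in sSpi, with the lowest and the highest array both in sSpi. Without sSpi replicate 3 the difference of cher was -0.0022.

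Vinc, the vinculin gene, had signals of 19.1, 24.9 and 23.3 in RasV12, against 22.7, 66.4 and 25.0 in sSpi. A single array, sSpi replicate 2, was far above the other 5, which lay between 19.1 and 25.0. With it, the log2 difference was -0.40 ± 0.27 (SE, 95% interval -1.01 to 0.20, limma adjusted p = 0.530, n = 3). Without it the difference was -0.06, and without both it and RasV12 replicate 1 it was 0.01, on the other side of 0.

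**Figure D2:**
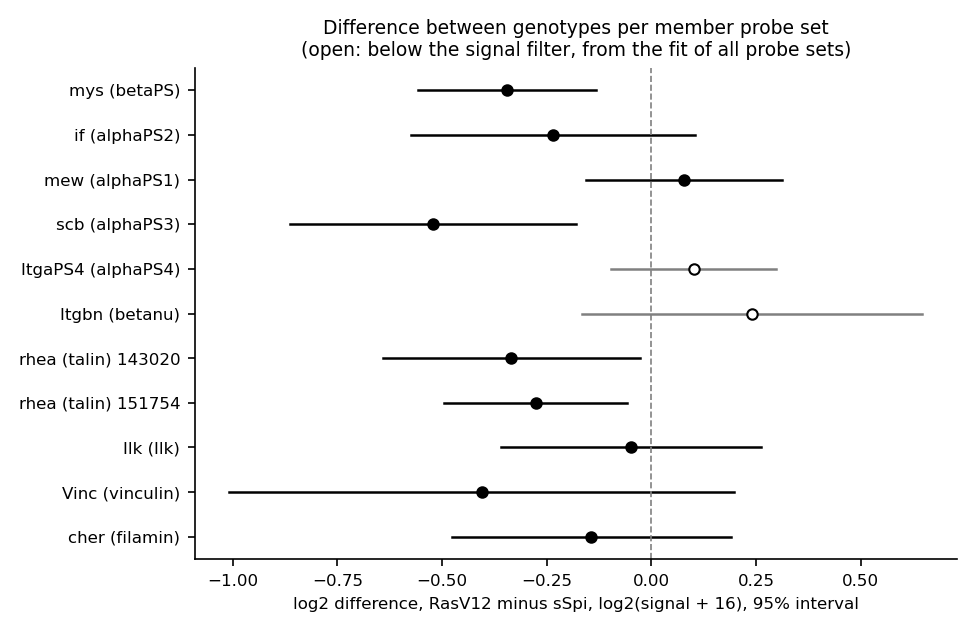
The log2 difference, RasV12 minus sSpi on the log2(signal + 16) scale, of each probe set with its 95% interval from limma (n = 3 per genotype). The intervals of mys, scb and both rhea probe sets lie below 0 before adjustment for multiple testing, mew sits at 0.08, and the interval of Vinc is the widest; open points are the 2 genes below the signal filter.

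Across the 9 tested probe sets the log2 differences ran from -0.52 to 0.08, with 8 of 9 below 0 and a median of -0.28. Over all tested probe sets 51.4% were below 0 and the median was -0.01, with 5th and 95th percentiles of -0.40 and 0.41. The highest of the 6 signals was on an sSpi array for 7 of the 9 and on a RasV12 array for 2, mew and Ilk. The lowest signal was on a RasV12 array for 7 of the 9, on RasV12 replicate 1 for 5 of them. Without RasV12 replicate 1 the log2 difference was -0.36 for mys, -0.45 for scb, -0.25 for the rhea probe set 151754_at and -0.22 for 143020_at. None of these 4 was called without it, at limma adjusted p of 0.074, 0.149, 0.195 and 0.362.

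**Figure D3:**
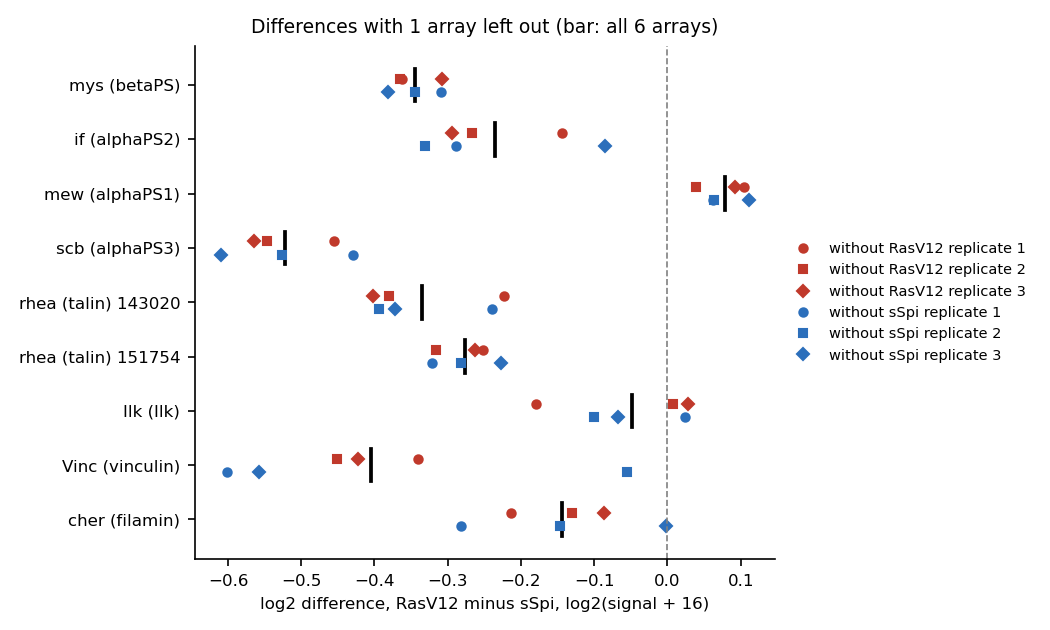
The log2 difference, RasV12 minus sSpi, of the 9 tested probe sets with all 6 arrays (black bar) and with each single array left out (red, a RasV12 array; blue, an sSpi array). The points of mys, scb, rhea, if, cher and Vinc all stay below 0, those of mew stay above 0, and those of Ilk fall on both sides. Vinc moves from -0.40 to -0.06 without sSpi replicate 2.

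The partners of integrins at the adhesion site had differences of both signs, and 0 of 13 tested were called in limma. The list held 21 genes, of which 14 had a probe set here, the brightest standing for each gene, and 3 of the 13 had an unadjusted p under 0.05, against 15.2% of all tested probe sets. The median log2 difference was 0.08, with 7 above 0 and 6 below. The smallest adjusted p was that of Csk, which encodes a kinase that restrains Src kinases, at 395 ± 5.67 in RasV12 and 299 ± 20.8 in sSpi (SD, n = 3). Its log2 difference was 0.39 ± 0.10 (SE, limma adjusted p = 0.080). Every RasV12 array lay above every sSpi array for 3 of the 13, Csk, p130CAS and Actn, against 10.2% of all tested probe sets. For 1 of the 13 every RasV12 array lay below, against 11.1%. The difference of p130CAS, the gene of a focal adhesion docking protein, was 0.43 ± 0.14 on the log2 scale (SE, limma adjusted p = 0.166, n = 3). Besides Csk and p130CAS, the gene at an unadjusted p under 0.05 was by, the tensin gene. It was lower on every RasV12 array, at 83.7 ± 9.03 in RasV12 and 117 ± 23.6 in sSpi. Its log2 difference was -0.41 ± 0.15 (SE, limma adjusted p = 0.227, n = 3). None of the partners of Ilk was called: stck, the PINCH gene, by -0.08 ± 0.11, ics, which encodes a PINCH-binding protein, by -0.03 ± 0.09, and parvin by -0.22 ± 0.13, with a 95% interval from -0.51 to 0.07. The paxillin gene Pax differed by 0.09 ± 0.11 and the kindlin gene Fit2 by 0.25 ± 0.21.

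Among matrix proteins that integrins bind or sit beside, 1 of 11 tested was called, Ppn, the papilin gene, and it was higher in RasV12. Its signals were 290, 287 and 258 in RasV12, against 208, 148 and 187 in sSpi. The log2 difference came to 0.59 ± 0.13 (SE, limma adjusted p = 0.0498, n = 3). The call ended in 12 of 16 other settings, each single array left out among them, at adjusted p up to 0.176. The other Ppn probe set lay below the signal filter, at 27.3 in RasV12 and 18.2 in sSpi on average. At an unadjusted p under 0.05 were 3 of the 11, Ppn, SPARC and Tig, against 15.2% of all tested probe sets. SPARC, which encodes a collagen-binding matrix protein, was lower on every RasV12 array, at 286, 281 and 286 in RasV12, against 330, 345 and 362 in sSpi. It was not called (limma adjusted p = 0.208, n = 3). SPARC was the 1 of the 11 lower on every RasV12 array, against 11.1% of all tested probe sets. Ppn was the 1 of the 11 higher on every one, against 10.2%. Tig, which encodes tiggrin, a ligand of the alphaPS2 integrin, was picked for mention with its values known, as were SPARC and by. Its signals were 46.4, 26.3 and 19.8 in RasV12, against 40.3, 59.1 and 64.9 in sSpi. RasV12 replicate 1 lay among the sSpi arrays, and the log2 difference of -0.62 ± 0.22 was not called with all 6 arrays (SE, limma adjusted p = 0.221, n = 3). Without RasV12 replicate 1 the difference of Tig was -0.84 ± 0.19 (SE) and was called (limma adjusted p = 0.043). In that setting 369 of 8380 probe sets were called, against 219 with all 6 arrays. The laminin genes LanA, LanB1 and LanB2 differed by -0.04 ± 0.13, 0.04 ± 0.09 and 0.13 ± 0.13. The collagen IV genes Col4a1 and vkg differed by -0.15 ± 0.16 and 0.05 ± 0.12. The median of the 11 was -0.02.

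Of receptors for matrix other than integrins, 0 of 5 tested were called in limma and 0 had an unadjusted p under 0.05. With 1 probe set per gene, the brightest, the smallest p-values were those of the dystroglycan gene Dg, at 0.20 ± 0.10, and the sarcoglycan gene Scgdelta, at -0.21 ± 0.14 (SE, limma adjusted p = 0.409 and 0.537, n = 3). Every RasV12 array lay above every sSpi array for 1 of the 5, Dg, against 10.2% of all tested probe sets, and 0 of the 5 lay entirely below. A further probe set of the dystrophin gene Dys had a smaller p than Dg, at -0.29 ± 0.14 (SE, limma adjusted p = 0.363, n = 3). The median of the 5 was 0.00012.

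**Figure D4:**
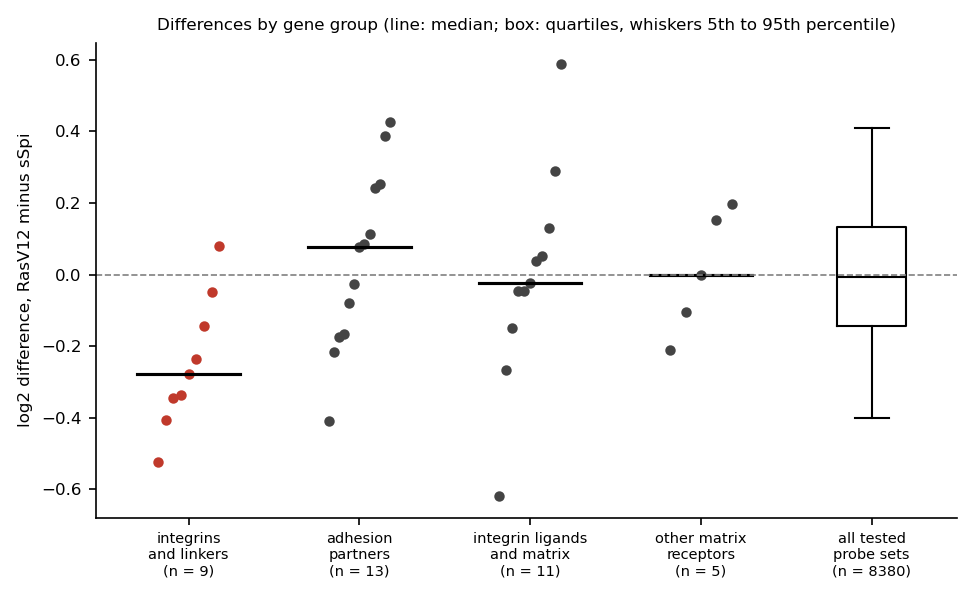
The log2 difference, RasV12 minus sSpi, of the 9 tested integrin and linker probe sets and of 1 probe set per gene in the 3 related lists, with a line at each median, beside a box of all 8380 tested probe sets (quartiles -0.14 and 0.13, whiskers -0.40 and 0.41). The median of the integrins and linkers is -0.28, and those of the lists are 0.08, -0.02 and 0.00012.

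Markers of other cells that carry integrins were read on the same arrays, and their part in these results was not tested. In pooled discs, fewer cells of a type and less RNA per cell cannot be told apart. The summed signal of 8 glial markers was 1145 to 1290 in RasV12 and 1657 to 1766 in sSpi. Most of that gap was Gli, which encodes a septate junction protein, with a mean of 738 ± 43.0 in RasV12, against 1189 ± 39.8 in sSpi (SD, n = 3). Without Gli the sums overlapped, at 452 to 513 in RasV12 and 493 to 598 in sSpi. For repo, the glial transcription factor gene, means were 99.4 ± 13.5 in RasV12 and 127 ± 22.8 in sSpi (SD, n = 3). Of 6 glial genes tested, 1 was called lower, Gli, and 0 higher, and every RasV12 array lay below every sSpi array for 3 of the 6 and above for 1, against 11.1% and 10.2% of all tested probe sets. At an unadjusted p under 0.05 were 4 of the 6, against 15.2% of all tested probe sets. Of these, Gli, moody and Mdr65 were lower in RasV12 and nrv2 was higher. Below the signal filter, gcm was higher on every RasV12 array, with means of 10.4 in RasV12 and 3.72 in sSpi. In the fit of all probe sets gcm differed by 0.43 ± 0.10, and wrapper, also below the filter, by -0.24 ± 0.18 (SE). Neither was called (limma adjusted p = 0.118 and 0.664, n = 3).

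Of 2 tendon cell markers with a probe set, sr, which encodes the transcription factor of muscle attachment cells, was lower on every RasV12 array. That was so for 11.1% of all tested probe sets. The mean of sr was 84.0 ± 12.3 in RasV12 and 127 ± 21.1 in sSpi (SD, n = 3, limma adjusted p = 0.117). For slow it was 248 ± 68.9 in RasV12 and 208 ± 2.45 in sSpi, and the groups overlapped. The plasmatocyte markers, 7 in all, summed to 283 to 456 in RasV12 and 263 to 414 in sSpi. Of 4 tested, 0 were called in limma or had an unadjusted p under 0.05, and 3 were above 0 and 1 below. NimC1, which encodes a phagocytosis receptor of plasmatocytes, lay below the filter, at 4.35, 6.54 and 3.04 in RasV12, against 22.1, 17.3 and 25.2 in sSpi. Every RasV12 array was lower, and in the fit of all probe sets its log2 difference of -0.86 ± 0.13 was called (SE, limma adjusted p = 0.026, n = 3). That call ended with any 1 array left out, at adjusted p from 0.060 to 0.106. With all 6 arrays the fit of all probe sets called 138 of 13966. In it srp and Sr-CI, plasmatocyte markers also below the filter, differed by 0.40 ± 0.19 and 0.16 ± 0.24 (SE) and were not called. The 4 lamellocyte markers summed to 397 to 489 in RasV12 and 438 to 505 in sSpi, with 0 called in limma. One, atilla, was at an unadjusted p under 0.05, higher in RasV12, against 15.2% of all tested probe sets in either direction. Another, msn, went the other way, at 260, 293 and 326 in RasV12, against 370, 338 and 329 in sSpi. It was the 1 of the 4 that was lower on every RasV12 array, against 11.1% of all tested probe sets, and 0 were higher on every one. The 6 muscle and myoblast markers summed to 364 to 664 in RasV12 and 224 to 814 in sSpi, with twi, Him and Act88F below the signal filter. The 5 tracheal markers summed to 2708 to 3522 in RasV12 and 2600 to 3020 in sSpi, with 0 of 4 tested called in limma. Of these 4, 3 had an unadjusted p under 0.05, against 15.2% of all tested probe sets, with Gasp and verm higher and esg lower in RasV12. The marker btl lay below the signal filter, at 5.41 in RasV12 and 7.11 in sSpi on average, and trh had no probe set here. Most of the tracheal sum came from verm, serp and Gasp. The 3 fat body markers summed to 70.5 to 85.1 in RasV12 and 74.5 to 238 in sSpi. The ecdysone response genes, which follow the approach of metamorphosis, had list scores of -0.42, 0.56 and 0.61 in RasV12 replicates 1 to 3 and -0.01, -0.16 and -0.59 in sSpi replicates 1 to 3. A list score is the mean log2 deviation of the 11 tested genes from their own mean over 6 arrays. Of the 11, 0 were called in limma, and 9 were above 0 and 2 below, with a median log2 difference of 0.37. At an unadjusted p under 0.05 were 3, ImpE3, ImpE2 and Hr3, all higher in RasV12, against 15.2% of all tested probe sets. Every RasV12 array lay above every sSpi array for ImpE3 alone, against 10.2%, and 0 of the 11 lay entirely below.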

How the data were processed

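The authors deposited 1 table of intensities, a MAS5 signal per probe set and array on a linear scale. Per the submitters' processing notes the software was MAS5. Its version and any genome build are not given in the sources used here. The mean after trimming 2% from each end was 100.01 on every array, so the deposited intensities had been scaled to a common level. Gene names came from the platform annotation, and current symbols, matched by gene identifier, and gene neighbours came from a RefSeq table of the fly assembly Release 6 plus ISO1 MT.

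Signals were taken as log2(signal + 16), which shrinks the differences of dim genes. The 60% of 13966 non-control probe sets with the highest mean over all 6 arrays were tested (8380, mean signal above 23.4) in limma 3.58.1 (R 4.3.3), by lmFit followed by eBayes, whose prior variance followed the mean signal. Two-sided p-values were adjusted over all tested probe sets by Benjamini-Hochberg, at a threshold of 0.05. For genes below the filter, differences come from the same fit run on all probe sets. The number of arrays limits the precision. The titles call the arrays biological replicates.

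The genes, lists and tests were chosen with earlier results of these data known. Named are all 10 genes with every probe set, called list genes, or the 2 of smallest p in a list with none, spi, and other genes given as background or singled out. The fit was tested on simulated data with known changes, 200 in each of 5 simulations. It recovered 28.1% of changes of 0.5 on the log2 scale, 77.9% of changes of 1 and 97.9% of changes of 2. Alternatives tried were other pseudocounts, filters and scalings, no trend, a replicate block, arrays left out and 1 probe set per gene. The plots used matplotlib 3.10.9 (Python 3.11.15).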

Additional observations from a re-analysis of the deposited data

How the results depend on the processing

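No integrin or linker probe set was called in any of 157 combinations of gene and setting, and the lowest limma adjusted p was 0.074, for mys without RasV12 replicate 1. In 4 of the 157 the sign turned: Ilk, at -0.05, ran from -0.18 to 0.028 with 1 array left out, and Vinc was 0.0087 without both RasV12 replicate 1 and sSpi replicate 2. The difference of scb minus mys turned to 0.042 with a pseudocount of 64. The median of the tested integrin and linker probe sets stayed between -0.32 and -0.21 in 16 settings. The count over all probe sets, 219, was 86 to 369 with 1 array left out and 138 without the signal filter. Arrays of the same replicate number did not deviate together (r = -0.11, -0.04 and -0.14 across probe sets). This gave no sign of pairing, but with 3 arrays per genotype it cannot exclude it. With the replicate block the count was 159, of which 147 were among the 219, and the block called no integrin or linker probe set. The matrix list had 1 gene called, Ppn, and 0 under a pseudocount of 1, no filter, quantile normalization, no trend, the replicate block and with RasV12 replicate 1 and sSpi replicate 2 both left out, and 0 to 1 with 1 array left out, the 1 being Tig. The cause of these changes was not tested. With 3 arrays per genotype, the 95% intervals of the tested integrin and linker probe sets are 0.425 to 1.21 wide on the log2 scale, and the absence of calls does not show equal levels. The settings for ItgaPS4, Itgbn and NimC1, those for ey and Gli, and the comparisons within arrays, were chosen after seeing the data.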
